A study of Mus musculus with 111 samples.

Results

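The data compared here were the RNA-seq libraries of mice that received wild-type histone H3.3 and of mice that received GFP, both collected at ZT12, the hour of lights off. Of the 6 times at which these viruses were compared, ZT12 was singled out as the one with the most rows at low p, so its number of low-p rows is a description. The libraries were then taken by virus and time from the sample labels and numbered 13 of the 111 libraries of the series, 7 with H3.3 and 6 with GFP. Every mouse was C57BL/6 by the labels, C57BL/6J in the study's methods, and had been infused in the tuberomammillary nucleus (TMN) of the posterior hypothalamus with an adeno-associated virus. The GFP group received the empty vector, and the H3.3 group a vector with tagged wild-type H3.3. Both vectors also made GFP from an internal ribosome entry site, so expression of GFP and infection were shared by the groups, and GFP fluorescence guided the dissection of frozen tissue. By the study's methods the animals were of both sexes, and the labels name 3 cohorts. Cohort 1 gave 5 GFP and 4 H3.3 libraries, cohort 2 gave 1 and 2, and cohort 3 gave 1 H3.3 library. Another virus, carrying H3.3 with glutamine 5 changed to alanine (Q5A), was measured at the same time in 7 libraries.

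H3.3 is the histone H3 variant that neurons, which no longer divide, place into chromatin throughout life with the chaperones Hira, Daxx and Atrx. Its glutamine 5 can carry serotonin, histamine or dopamine next to the methylated lysine 4. The TMN holds the histamine neurons of the brain, which are active in waking and depend on Hdc, the enzyme that makes histamine. Matr3, the gene that leads the comparison below, encodes matrin 3, a nuclear matrix protein that binds RNA and takes part in splicing.

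The values are reads per gene name, and the strand decides what a row of the count table holds. The kit's first read runs against the transcript, while the reads were counted in the direction of the gene, so most reads of a gene were not counted under its own name. Gene rows held 3.55% to 5.63% of uniquely placed reads in GFP and 3.49% to 4.13% in H3.3. The row of greatest count, Gm20721, had a mean of 72400 reads per library and lies on the strand opposite Gnas, which encodes a G protein subunit abundant in brain. The Gnas row itself (chr2:174284320-174346744, plus strand, GRCm38) had 1297. A difference is therefore stated for a row of that name, and rows were described by what the annotation has on the other strand. Of the 9774 rows tested, 3807 had no gene there, 350 had only a gene body, 3580 overlapped an opposite exon, and 2037 had a name with no position in the annotation. The 4 classes held 12.2%, 1.19%, 52.2% and 34.4% of the reads in tested rows.

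The labels could be checked only in part. The H3f3a row, for the first of the 2 mouse genes of H3.3, had 0 to 21 reads in GFP and 1 to 10 in H3.3. The H3f3b row had 14 to 122 and 8 to 30 reads, and a log2 difference of -0.55 ± 0.28 (SE, edgeR adjusted p = 0.191). The groups overlapped in both rows, and rows of this kind do not measure the virus's transcript. Hdc had 1 to 43 reads in the 13 libraries, too few for the test, and the 15 mitochondrially encoded genes were at 0 in each of them.

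A pair of libraries stood apart by genes of the striatum, a forebrain region outside the TMN. GFP cohort 1 replicate 3 and H3.3 cohort 1 replicate 1 had 1397 and 1604 CPM (counts scaled to a library of 1e6) summed over striatal markers, against 207 to 496 in the other 11. This sum was scaled by the total of gene rows, while CPM elsewhere use the trimmed-mean library sizes described below unless stated. An unplaced row with a clone-based name had 7188 and 9248 reads in this pair of libraries and 71 to 313 elsewhere. Ppp1r1b, the dopamine-signalling protein of striatal projection neurons, reached 227 CPM in the GFP library and 279 in the H3.3 library, against group medians of 8.41 and 4.96. Adora2a, a defining adenosine receptor of these neurons, reached 25.2 and 22.6 CPM with medians of 0.818 and 0. Of 14 striatal markers tested, 0 were at p under 0.05 in either direction. With 1 such library in each group the spread of such rows was wide, as for Ppp1r1b (SD 89.0 CPM in GFP and 103 in H3.3). The test therefore does not show that the groups were equal in striatal genes.

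No row was called between H3.3 and GFP at an adjusted p under 0.01 by edgeR (0 of 9774, 0%), and the smallest adjusted p was 0.0700. At an unadjusted p under 0.05 there were 2877 rows. Of these, 1097 were higher in H3.3 (11.2% of rows tested) and 1780 were lower (18.2%). The 7 H3.3 and 6 GFP libraries did not overlap in 81 rows that were higher (0.829%) and 49 that were lower (0.501%). The study itself, by DESeq2 at an FDR under 0.01, reports more differentially expressed genes between these viruses at ZT12 than at any other time. In the present fits DESeq2 called 50 of the 8029 rows it adjusted (0.623%), 20 higher and 30 lower. With limma voom and quality weights 765 were called, so the count of calls depends on the tool. The low-p rows therefore describe this comparison and are not a list of changed genes. The replicates are separate animals, so each p-value measures spread between animals, and in tissue, fewer cells of a type and less RNA per cell cannot be told apart.

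The direction also depended on the scaling. Trimmed-mean (TMM) scaling put the median log2 difference of all rows at -0.08, library totals alone at -0.35 and uniquely placed reads at -0.50. Lower rows made up 61.9% of the low-p rows under TMM, 54.6% under median-of-ratios factors, 93.7% under library totals (216 higher, 3205 lower) and 99.1% under uniquely placed reads (33 higher, 3781 lower). All log2 values below are on the TMM scale and are read against its median.

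Matr3 had the smallest p of all rows with a mean of at least 10 reads. Its row lies at chr18:35562138-35593835 on the plus strand, and its exons overlap those of AC121821.3 on the other strand. In GFP it had 141, 158, 34, 79, 55 and 257 reads, and in H3.3 it had 20, 26, 32, 20, 29, 35 and 24. Scaled, this was 73.6, 74.2, 30.6, 48.3, 38.3 and 81.3 CPM in GFP and 20.6, 25.8, 31.4, 21.3, 20.5, 23.7 and 18.7 CPM in H3.3. The GFP library with striatal genes was the lowest of its group and overlapped the highest H3.3 library, and the other 5 GFP libraries lay above all of H3.3. The means were 57.7 ± 21.4 CPM (SD, n = 6) and 23.1 ± 4.35 (SD, n = 7), a log2 difference of -1.33 ± 0.25 (SE, edgeR adjusted p = 0.0700). DESeq2 gave an adjusted p of 0.00272 for the row, and leaving out the GFP library with striatal genes gave an edgeR adjusted p of 0.00847. In cohort 1 alone the log2 difference was -1.14 (edgeR adjusted p = 0.190).

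The other 11 of the 12 lower rows of smallest p are given with what each encodes, and were not tested as groups. Herc2 (chr7:56050196-56231800, plus strand), a very large ubiquitin ligase, ranged from 31.5 to 87.1 CPM in GFP (median 57.3) and from 17.01 to 35.9 in H3.3 (median 21.6), log2 -1.34 ± 0.25. Nedd4 (chr9:72662346-72749852, plus strand), a membrane-associated ubiquitin ligase, ranged from 54.8 to 147 CPM (median 96.8) and from 30.8 to 52.1 (median 45.7), log2 -1.15 ± 0.23. Pja2 (chr17:64281005-64331916, minus strand), another ligase, ranged from 36.9 to 129 CPM (median 80.2) and from 15.9 to 36.4 (median 33.4), log2 -1.34 ± 0.27. The groups did not overlap for Nedd4 and Pja2 and overlapped for Herc2. Usp32, a deubiquitinase, had medians of 23.0 CPM in GFP and 8.50 in H3.3, log2 -1.49 ± 0.30.

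Smg1 (chr7:118131308-118243670, minus strand), the kinase of nonsense-mediated decay, ranged from 7.19 to 36.5 CPM in GFP (median 21.8) and from 3.89 to 9.82 in H3.3 (median 6.10). Its log2 difference of -1.80 ± 0.34 was the most negative of the 12. Bclaf1 (chr10:20312469-20344613, plus strand), a nuclear protein of transcription and splicing, ranged from 22.5 to 52.5 CPM and from 9.25 to 21.7 with no overlap, log2 -1.27 ± 0.26. Snhg11 (chr2:158375638-158386145, plus strand), a snoRNA host expressed in neurons and annotated as protein-coding, ranged from 89.0 to 284 CPM (median 166) and from 42.8 to 93.3 (median 64.5), log2 -1.42 ± 0.29. Its 2 lowest GFP libraries lay at the level of the highest H3.3 library. Gabrb2, the beta 2 subunit of the GABA-A receptor, ranged from 12.6 to 24.4 CPM in GFP and from 4.96 to 8.55 in H3.3, log2 -1.30 ± 0.26. Btbd8, Cdc42se2, a small effector of Cdc42, and Mkl2, a coactivator of serum response factor, had log2 differences of -1.61, -1.45 and -1.40. Each of these 12 rows had an edgeR adjusted p of 0.0700, a value that the adjustment gave to many rows. Of the 12, 10 had no gene on the opposite strand.

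The 12 higher rows of smallest p were of another kind: 6 had clone-based names with no position, 4 overlapped an opposite exon, and 2 had no opposite gene. Uchl1os (chr5:66626495-66676498, minus strand) is annotated as an antisense RNA of Uchl1, the ubiquitin hydrolase that is one of the most abundant neuronal proteins. It overlaps an exon of Uchl1, so with the counting direction described above its row can hold reads of Uchl1 itself. The Uchl1os row had a mean of 1815 reads and the Uchl1 row 169, and the share of Uchl1 reads in the former was not tested. It ranged from 942 to 1054 CPM in GFP (median 992) and from 1277 to 1956 in H3.3 (median 1489), log2 0.61 ± 0.14 (edgeR adjusted p = 0.0700). The groups did not overlap, and GFP varied little. The Uchl1 row (chr5:66676091-66687234, plus strand) went the other way, with medians of 101 CPM in GFP and 69.8 in H3.3, log2 -0.67 ± 0.31 (edgeR adjusted p = 0.164).

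Nt5c2 (chr19:46883317-47015153, minus strand), a purine nucleotidase whose exons overlap those of the neurofilament gene Ina, ranged from 257 to 376 CPM in GFP and from 414 to 753 in H3.3, log2 0.72 ± 0.17. Zfp142, a zinc finger gene opposite Plcd4, ranged from 91.8 to 128 CPM and from 138 to 238, log2 0.69 ± 0.17. Ceacam16, an adhesion molecule of the inner ear opposite Gm19345, ranged from 38.7 to 60.6 CPM and from 73.6 to 91.8, log2 0.68 ± 0.16. These ranges did not overlap between the groups. Among unplaced names, RP23-96A14.2 had the smallest p, with 383 to 639 CPM in GFP (median 435) and 638 to 949 in H3.3 (median 803), log2 0.75 ± 0.16 (edgeR adjusted p = 0.0700). Its highest GFP library touched its lowest H3.3 library. The other unplaced names were RP23-188K3.3, RP23-25C1.7, RP24-424K5.5, CH25-211A23.3 and RP23-385C21.2, with log2 differences of 0.84, 0.68, 0.91, 1.11 and 0.69. Tceanc and Acad10, with no opposite gene, had medians of 5.04 and 5.98 CPM in GFP and 11.7 and 13.2 in H3.3.

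**Figure D1:**
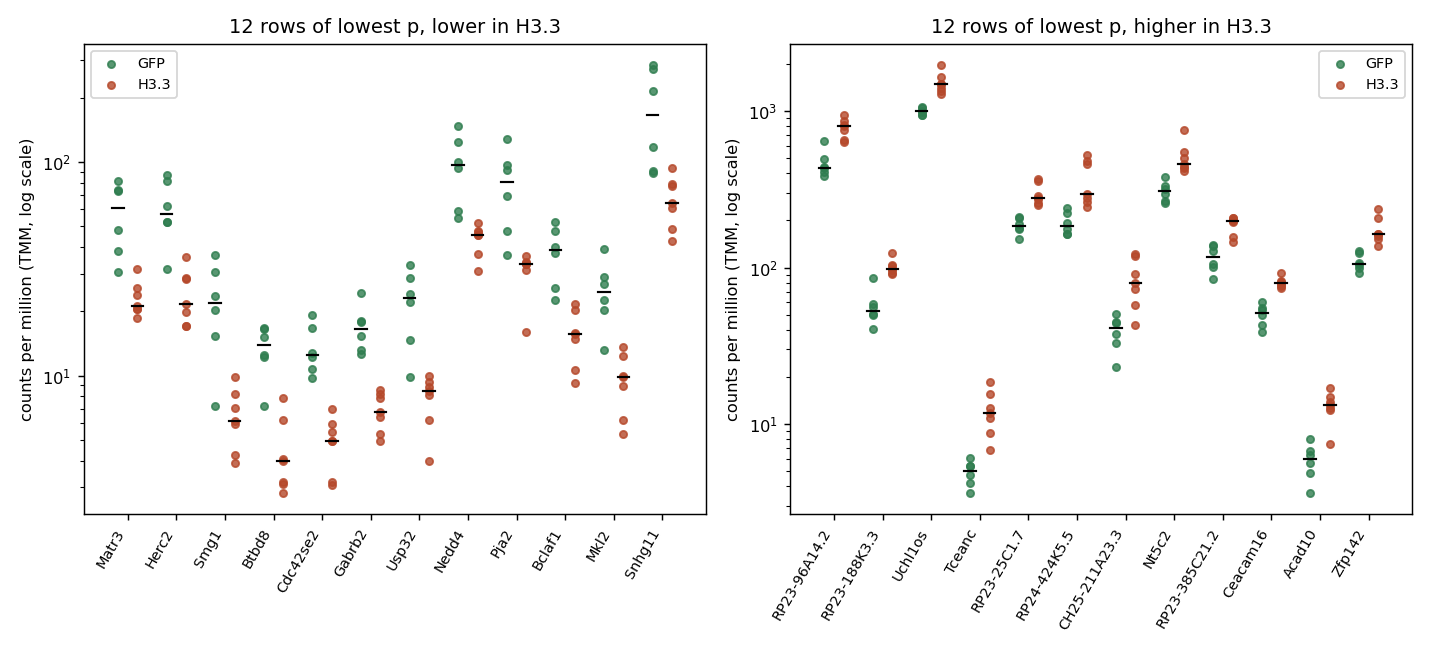
CPM (TMM, log axis) of the 12 lower and 12 higher rows of smallest p in each of 6 GFP (green) and 7 H3.3 (red) libraries at ZT12, 1 point per library, with the group median as a black line. Rows were chosen by p, so the separation of the groups is a description. Among the lower rows the GFP libraries spread widely, as for Matr3 from 30.6 to 81.3, while for Uchl1os on the right GFP stays between 942 and 1054.

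The direction of the low-p rows differed between row classes. Of the 3807 rows with no gene on the opposite strand, 1233 were lower (32.4%) and 61 higher (1.60%), with a median log2 difference of -0.47. Rows opposite only a gene body had 91 of 350 lower and 5 higher, with a median of -0.38. Rows overlapping an opposite exon had 393 of 3580 lower and 533 higher, with a median of 0.13, and rows with no position had 63 of 2037 lower and 498 higher, with a median of 0.33. The corresponding shares over all rows were 18.2% lower and 11.2% higher. Rows annotated as antisense RNA were at low p and higher in 37 of 129 and lower in 1, lincRNA rows in 34 of 134 and 2, and miRNA rows in 11 of 50 and 0. Of the 50 rows DESeq2 called, the 22 with no opposite gene were lower, those overlapping an opposite exon were 10 higher and 7 lower, and those with no position were 10 higher and 1 lower. Under library totals or uniquely placed reads the median of the opposite-exon class was -0.13 or -0.27, and that of the unplaced class 0.08 or -0.04. The order of these 3 class medians, with no opposite gene the most negative, was the same under every scaling.

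**Figure D2:**
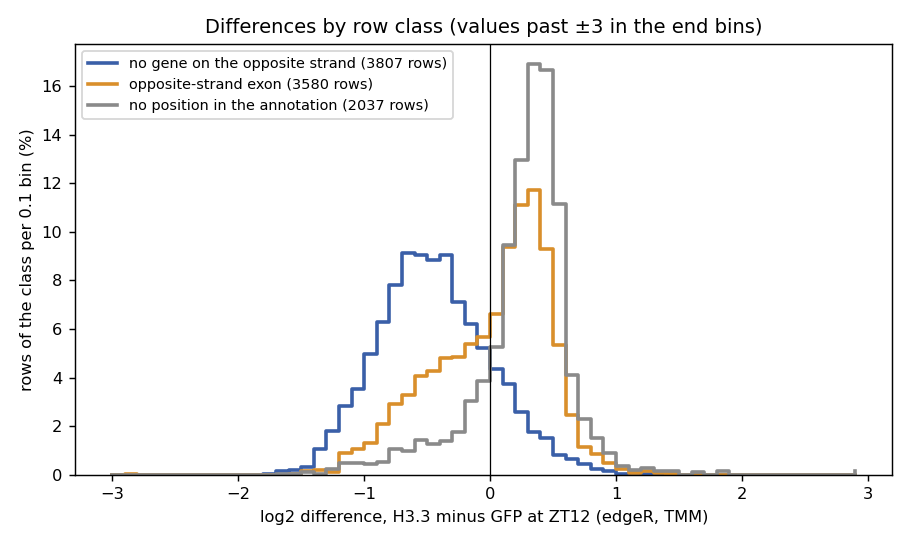
Distribution of the log2 difference, H3.3 minus GFP at ZT12 (edgeR, TMM), in bins of 0.1 as a percent of the rows of a class, for 3807 rows with no opposite-strand gene (blue), 3580 overlapping an opposite-strand exon (orange) and 2037 with no position (grey). The blue curve lies to the left of 0 (median -0.47), the grey to the right (median 0.33), and the orange has a peak on the right and a shoulder on the left.

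Pairs of tested rows on opposite strands showed the same division within a pair. In 825 of 1111 such pairs (74.3%) the row with fewer reads was the more negative. Where one row had 5 times the reads of the other or more, this was so in 428 of 485 (88.2%), with medians of 0.37 for the row of more reads and -0.17 for the row of fewer. A row can enter more than 1 pair, as Gnas did with Gm20721 and Nespas, so the pairs are not independent. For Gnas the log2 difference was -0.28 ± 0.29, and for Gm20721 it was 0.48 ± 0.18, with medians of 40387 CPM in GFP and 61516 in H3.3. Nme7, opposite the sodium pump subunit gene Atp1b1, was at 0.49 ± 0.20, and Atp1b1 was at -0.19 ± 0.20.

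Within the class with no opposite gene, the lower rows were more frequent among long and AT-rich genes. In 5 bins of equal number by exon length, 25.2% of the shortest and 47.1% of the longest were at low p and lower, with medians of -0.40 and -0.61. By GC content the share went from 43.3% in the lowest (33.3% to 44.9% GC) to 18.0% in the highest (56.6% to 70.7% GC), with medians of -0.62 and -0.31. By mean reads it went from 19.3% in the lowest bin to 38.9% in the highest, while the medians, -0.38 and -0.44, differed little. Among opposite-exon rows the bin with most reads had 316 of 716 higher and 19 lower, and the bin with fewest had 26 higher and 80 lower. Length, GC content and read number were not separated from one another.

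In the gene lists that follow, lower and higher count members at low p, beside 18.2% and 11.2% of all rows. A member is the row of that name, not a measure of the gene's mRNA. Rows with no opposite gene were lower in 32.4% as a class, and many members are such rows. Of these, 13 of 27 were lower in the splicing list, 12 of 19 for receptors, 13 of 38 for oxidative phosphorylation and 11 of 24 for ribosomal proteins. List shares were not tested against their row classes. Nuclear RNA-binding and splicing genes, the group to which Matr3 belongs, were at low p and lower in 24 of 49 tested, with 0 higher and a median log2 difference of -0.58. Srrm2, a large scaffold protein of the spliceosome, ranged from 57.8 to 167 CPM in GFP (median 97.1) and from 43.6 to 70.7 in H3.3 (median 47.6), log2 -0.98 ± 0.25. Hnrnpa2b1, which binds and transports RNA, had medians of 59.9 and 33.4 CPM, log2 -0.84 ± 0.22. Mbnl2, a splicing regulator, ranged from 27.5 to 37.6 CPM in GFP and from 13.6 to 21.9 in H3.3 without overlap, log2 -0.75 ± 0.20. Each of these 3 had an edgeR adjusted p of 0.0700, and 13 of the 24 lower members were rows with no opposite gene. Long noncoding RNAs and snoRNA hosts were lower in 4 of 7. Beside Snhg11 these were the imprinted RNAs Meg3, with medians of 625 and 339 CPM, and Rian, with 56.7 and 26.5, and the nuclear RNA Malat1, with 18.2 and 7.86. The log2 difference of Malat1 was -1.104, with -1.65 without H3.3 cohort 2 replicate 2 and -0.84 without GFP cohort 2 replicate 1.

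Among rows named for neuronal and synaptic genes, those at low p were lower in H3.3. GABA and glutamate receptor genes were lower in 14 of 29 and higher in 0, with a median log2 difference of -0.60. Beside Gabrb2, the AMPA receptor subunit Gria2 had medians of 54.6 CPM in GFP and 26.5 in H3.3, log2 -1.16 ± 0.31 (edgeR adjusted p = 0.0700), and Gria1 had 108 and 60.5. Synaptic vesicle and scaffold genes were lower in 12 of 29 with 0 higher, among them Pclo, a scaffold of the active zone (53.8 and 29.8 CPM), and Syt1, the calcium sensor of release (169 and 95.6 CPM). Potassium channel genes were lower in 7 of 33, close to the 18.2% of all rows, led by the sodium-activated channel Kcnt1 (29.0 and 17.5 CPM). Of 5 transmitter markers tested, 4 were lower, among them the GABA-synthesizing enzymes Gad2 (medians 100.1 and 43.4 CPM) and Gad1 (82.8 and 48.3 CPM), and the vesicular glutamate transporter Slc17a6 (28.5 and 15.9 CPM). Gad2 ranged from 27.5 to 158 in GFP and from 26.6 to 84.5 in H3.3, so the groups overlapped.

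Rows named for genes of energy metabolism and protein synthesis gave a similar picture. Nuclear-encoded oxidative phosphorylation genes were lower in 18 of 58 and higher in 1, Cox6c, which lies opposite Vps13b, with a median log2 difference of -0.57. Ndufv2, a core subunit of complex I, had medians of 24.9 CPM in GFP and 9.50 in H3.3, log2 -1.29 ± 0.35 (edgeR adjusted p = 0.0708). Sdha, the flavoprotein of complex II, had 78.2 and 43.2 CPM, log2 -1.15 ± 0.35. Ribosomal protein genes were lower in 12 of 40 and higher in 3, and the classes parted here: the 24 with no opposite gene had a median of -0.69, and the other 16 had 0.21. The 3 higher members, Rps28, Rpl15 and Rps25 (log2 0.57, 0.45 and 0.34), overlapped opposite exons, those of Kank3, Nkiras1 and Trappc4. Rpl26, of the large ribosomal subunit, had medians of 30.4 and 13.8 CPM, log2 -1.11 ± 0.29. Heat shock and cold-inducible genes were lower in 5 of 9, each with no opposite gene, including the chaperones Hsp90ab1 (444 and 347 CPM), Hspa8 (58.7 and 29.5 CPM) and Hspa5 (56.9 and 35.8 CPM). The cold-inducible RNA-binding protein gene Cirbp had 11.4 and 7.78 CPM, and Hsp90aa1 completed the 5 with a log2 difference of -0.47. Cox6c, Rps28, Rpl15, Rps25 and Hsp90aa1 were named after their values were seen.

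The study centres on chromatin and the clock. Of 11 tested members of the lysine 4 methyltransferase complexes, 4 were lower and 0 higher. These were the enzymes Kmt2a (medians 50.8 and 24.8 CPM, log2 -0.88 ± 0.23, edgeR adjusted p = 0.0700), Kmt2d (30.1 and 18.3 CPM), Kmt2c (18.1 and 8.14 CPM) and Kmt2b (19.0 and 14.9 CPM). Of the 11, 7 had no opposite gene, and 2 of these 7, Kmt2d and Kmt2b, were lower, beside 32.4% of that class. Among H3.3 genes and chaperones 2 of 9 were lower, Atrx with medians of 24.7 and 10.9 CPM (log2 -1.05 ± 0.26, edgeR adjusted p = 0.0700) and Cabin1, a member of the Hira complex, with 19.8 and 12.9 CPM. Of 12 clock genes 3 were lower and 0 higher: Tef, a clock-output transcription factor (47.6 and 31.9 CPM, log2 -0.66 ± 0.21, edgeR adjusted p = 0.0786), Per1, of the negative limb (16.99 and 9.93 CPM), and Nr1d2, a nuclear receptor repressor (13.9 and 9.82 CPM). At 25% for the clock and 22.2% for the chaperones, these shares were near the 18.2% of all rows. Histamine and monoamine genes had 2 rows tested and 0 at low p.

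**Figure D3:**
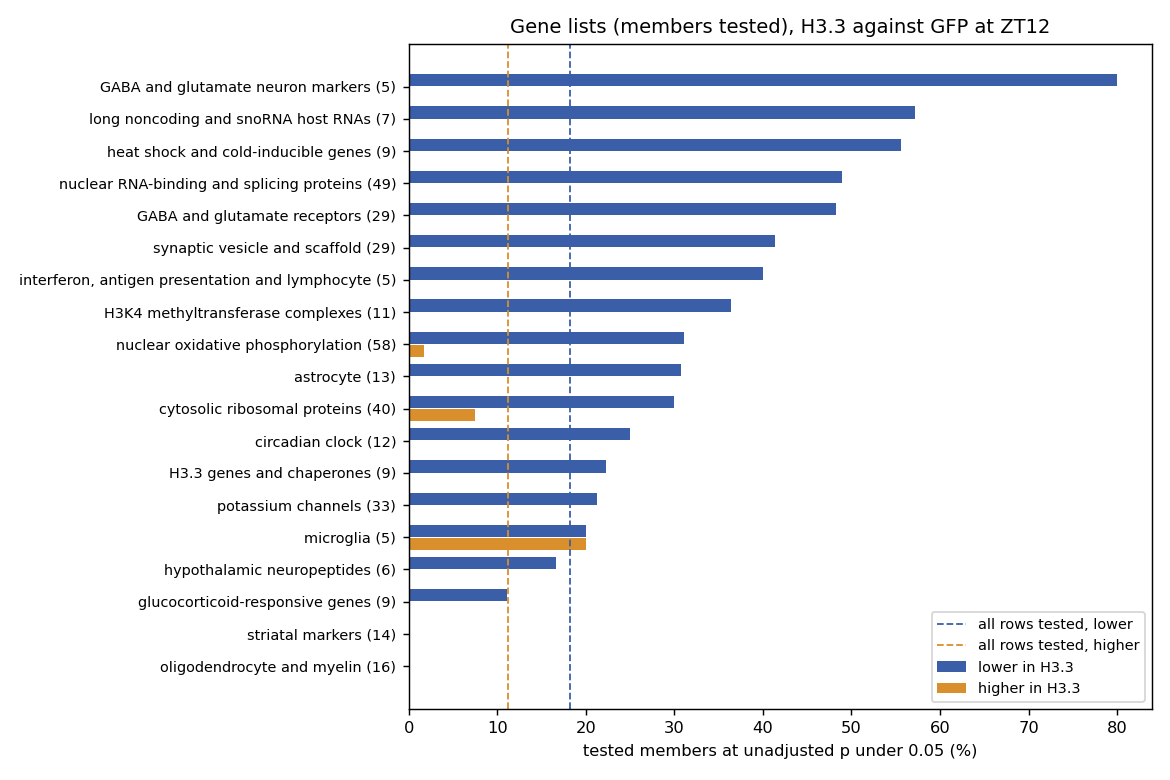
Percent of tested members of each gene list at unadjusted p under 0.05 (edgeR), lower (blue bars) or higher (orange bars) in H3.3 than in GFP at ZT12, for the 19 lists with at least 5 tested members, whose number is in brackets. The dashed lines mark all rows tested, 18.2% lower and 11.2% higher, and most lists with many members lie to the right of the first and left of the second. Rows with no opposite gene, of which 32.4% were lower, have no line.

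Markers of other cell types differed from list to list. Astrocyte genes were lower in 4 of 13, among them the glutamate transporters Slc1a2 (medians 187 and 100.4 CPM, log2 -0.82 ± 0.19, edgeR adjusted p = 0.0700) and Slc1a3 (112 and 44.7 CPM, log2 -1.31 ± 0.33). The summed astrocyte level ranged from 516 to 1561 CPM in GFP and from 483 to 871 in H3.3. Oligodendrocyte and myelin genes had 0 of 16 at low p, with sums of 1400 to 2683 and 1231 to 4498 CPM. Microglial genes had 1 of 5 lower, the complement gene C1qa (log2 -1.14, and -0.55 without GFP cohort 2 replicate 1), and 1 higher, the receptor gene Csf1r, which lies opposite Hmgxb3. Interferon and antigen presentation genes had 2 of 5 lower, the class I genes H2-D1 (medians 15.6 and 11.7 CPM, log2 -1.43 ± 0.57) and H2-K1 (10.2 and 7.78 CPM, log2 -1.27 ± 0.53). Their differences came with 1 high GFP library each, at 133 and 66.2 CPM, and without GFP cohort 2 replicate 1 they were -0.11 and -0.22. With log2 total as a covariate they turned to 0.47 and 0.29. The part of cell composition in the other differences was not tested.

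Hypothalamic neuropeptide genes varied widely between libraries. Pmch (chr10:88091072-88092375, plus strand), which encodes melanin-concentrating hormone of the lateral hypothalamus, ranged from 3.76 to 381 CPM in GFP and from 0 to 49.5 in H3.3, log2 -2.81 ± 0.85 (edgeR adjusted p = 0.0748). Without GFP cohort 2 replicate 1 the log2 difference was -1.80, and without H3.3 cohort 2 replicate 1 it was -3.54. The opposite row Parpbp, which overlaps the Pmch exons, ranged from 29.1 to 21644 CPM and from 60.7 to 17319, with medians of 9026 and 3408 (log2 -0.76 ± 1.1, edgeR adjusted p = 0.646). Both groups thus spanned more than 100-fold in the more abundant row of the locus. Of the other 5 neuropeptide rows tested, 0 were at low p.

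The groups differed in depth as well. Total counts were 1223272 to 2705042 in GFP (median 1587505) and 1059191 to 1537896 in H3.3 (median 1142254). The means were 1741013 ± 521262 (SD, n = 6) and 1285355 ± 226617 (SD, n = 7), a difference of -455658 reads (2-sided exact permutation test, p = 0.0303, adjusted over 5 depth measures 0.0758). In cohort 1 alone the difference was -443156 (exact permutation p = 0.0159, adjusted 0.0397), and without the 2 libraries with striatal genes it was -535356 (exact permutation p = 0.0303, adjusted 0.0505). Rows with a count numbered 20025 ± 1281 in GFP and 18000 ± 841 in H3.3 (SD, exact permutation p = 0.00699, adjusted 0.0350). The shares of gene rows among uniquely placed reads, of the 10 most abundant rows and of ambiguous reads had exact permutation p-values of 0.113, 0.168 and 0.984.

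The share of gene counts in rows with no opposite gene, a measure added after seeing the data, was 18.1%, 15.8%, 9.50%, 13.5%, 11.9% and 23.6% in the GFP libraries. In the H3.3 libraries it was 8.69%, 9.68%, 10.7%, 8.07%, 10.49%, 10.2% and 10.6%. The 5 GFP libraries without striatal genes lay above all 7 H3.3 libraries, and GFP cohort 2 replicate 1, the deepest, had the second highest share of the 111 libraries. The means were 15.4% ± 5.03 (SD, n = 6) and 9.77% ± 1.03 (SD, n = 7) (exact permutation p = 0.00699, adjusted over 4 such measures 0.0256). Scaled by uniquely placed reads in place of gene counts, the same rows were at 6948 ± 3497 and 3800 ± 567 CPM (exact permutation p = 0.0128, adjusted 0.0256), while opposite-exon rows were at 21641 ± 2613 and 20439 ± 1204 (exact permutation p = 0.333). In cohort 1 alone the shares were 13.7% ± 3.34 (SD, n = 5) and 9.27% ± 1.13 (SD, n = 4) (exact permutation p = 0.0476, adjusted 0.0635).

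Within GFP this share went with the total count (Pearson r = 0.932, exact permutation p = 0.0194, and Spearman rho = 0.943, exact permutation p = 0.0167, n = 6, each adjusted to 0.0389 over 4 relations). Without the 2 libraries farthest from the median total, r was 0.596 over 4 libraries, so the relation leans on them. Within H3.3, r was 0.518 (exact permutation p = 0.265) and rho was 0 (exact permutation p = 1), n = 7. Both measures come from the same libraries and reads.

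**Figure D4:**
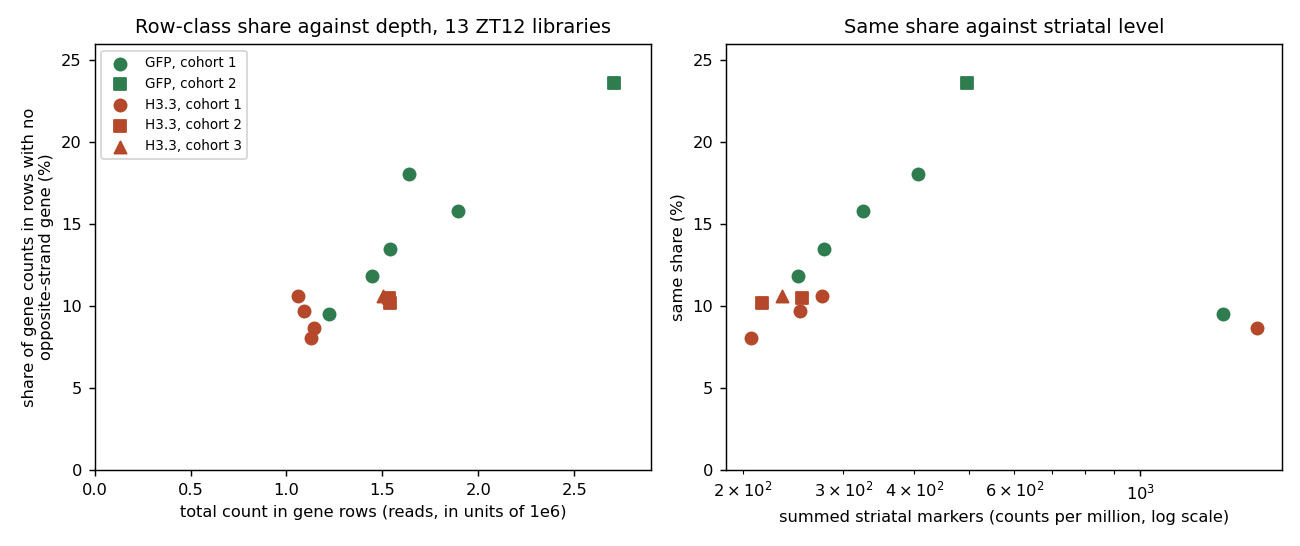
Share of gene counts in rows with no opposite-strand gene (percent) against the total count in gene rows (left, reads in units of 1e6) and against summed striatal markers (right, CPM, log axis), 1 point per ZT12 library, GFP in green and H3.3 in red, with the cohort as the marker shape. The 6 GFP libraries run from 9.50% to 23.6% along with the total, the 7 H3.3 libraries lie between 8.07% and 10.7%, and the 2 libraries with striatal genes, far right, are at 9.50% and 8.69%.

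The low-p rows were recounted with depth and the striatal libraries treated in other ways. With log2 total as a covariate in edgeR, 889 rows were at low p (439 higher, 450 lower) and 0 were called, and the class with no opposite gene had a median of -0.14. The Matr3 row then had a log2 difference of -1.0 (edgeR adjusted p = 0.487). Thinning each library to the smallest total left 2354 of 8220 rows at low p (870 higher, 1484 lower). With the log2 share of the no-opposite class as a covariate, which is itself taken from these counts, 822 rows were at low p and the class median was 0.08. Without the 2 libraries with striatal genes, 4142 rows were at low p (1759 higher, 2383 lower), 2092 had an adjusted p under 0.05 and 0 an adjusted p under 0.01. Of the 2877 low-p rows, 2724 remained at low p there, against 674 with log2 total and 231 with the log2 share as a covariate. With the share covariate the Matr3 row had a log2 difference of -0.59 (edgeR adjusted p = 0.582).

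Leaving out 1 library at a time showed which ones carried the count. Without GFP cohort 1 replicate 3, the GFP library with striatal genes and the lowest share, there were 4406 low-p rows and 26 rows were called, 2 higher and 24 lower. Without GFP cohort 2 replicate 1, the deepest, there were 1777 low-p rows (751 higher, 1026 lower) and 0 called. In cohort 1 alone there were 1836 (660 higher, 1176 lower) and 0 called, and with cohort as a covariate 4104 and 0. The median of the class with no opposite gene was -0.32 without the deepest library, -0.54 without the one with striatal genes and -0.44 in cohort 1 alone.

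The difference was then set against that at the other times. Because ZT12 was singled out for its low-p rows, a difference from the other times was in part built into this contrast, and its counts are a description, not a test that ZT12 is particular. The contrast of H3.3 minus GFP at ZT12 with the mean of the same difference at the other 5 times, in 1 fit of 71 libraries, called 189 of 13264 rows at an adjusted p under 0.01 (1.42%), and 4805 were at an unadjusted p under 0.05 (36.2%). Of the 189, 111 were lower and 78 higher. The 85 called rows with no opposite gene were 81 lower and 4 higher, the 44 with no position 3 lower and 41 higher, and the 57 overlapping an opposite exon 24 lower and 33 higher. In cohort 1 alone 1 row was called.

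The Matr3 row was among them, at -1.30 ± 0.31 (SE, log2). The rows of smallest p were Cct8, a subunit of the cytosolic chaperonin (-1.34 ± 0.25), Vps41, of the endosomal fusion machinery (-1.83 ± 0.34), Ift81, a part of ciliary transport (-2.92 ± 0.54), RP23-188K3.3 (1.02 ± 0.19) and RP23-25C1.7 (0.88 ± 0.17), also as log2 ± SE. Cct8 (chr16:87483326-87495873, minus strand) ranged at ZT12 from 39.1 to 71.2 CPM in GFP and from 14.8 to 39.1 in H3.3. Vps41 ranged from 5.39 to 66.2 CPM and from 4.25 to 19.4 with overlap. Ift81 had at most 17.7 CPM in GFP and 3.93 in H3.3 and was too low for the test at ZT12 alone.

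By time, the median of rows with no opposite gene in that fit was 0.02 for ZT0, 0.07 for ZT4 and 0.15 for ZT8. It was -0.41 for ZT12, 0.02 for ZT16 and 0.28 for ZT20. At ZT20 the direction was opposite to ZT12, with 655 such rows higher and 81 lower at p under 0.05. Of the 1780 rows lower at ZT12, 108 (6.07%) were lower at ZT20, where 47.5% of all rows were, and of the 1097 higher at ZT12, 43 (3.92%) were higher there, where 52.5% of all rows were. At ZT16 the shares leaned the other way, with 53.0% of the lower rows lower (48.0% of all rows) and 59.2% of the higher rows higher (52.0% of all rows). At ZT0, ZT4 and ZT8 they were 43.8%, 37.5% and 21.2% for the lower rows (49.2%, 46.3% and 46.2% of all rows) and 41.5%, 50.5% and 31.0% for the higher rows (50.8%, 53.7% and 53.8% of all rows). All of these values share the spread and scaling of 1 fit. The Matr3 row was higher in H3.3 at ZT20, at 0.94 ± 0.31 on the log2 scale (SE, edgeR, unadjusted p under 0.05). The share of counts in rows with no opposite gene had medians of 10.9% in GFP and 12.8% in H3.3 at ZT20, 14.6% and 10.2% at ZT12, and 9.53% and 10.6% at ZT8, each in the direction of the class median. At the other 3 times, where the class medians were 0.07 or less, it went against them by small amounts. There it was 10.03% and 9.97% at ZT0, 10.42% and 10.33% at ZT4, and 12.1% and 11.7% at ZT16. The part of this share in the row-level differences was not tested apart from the covariate above.

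**Figure D5:**
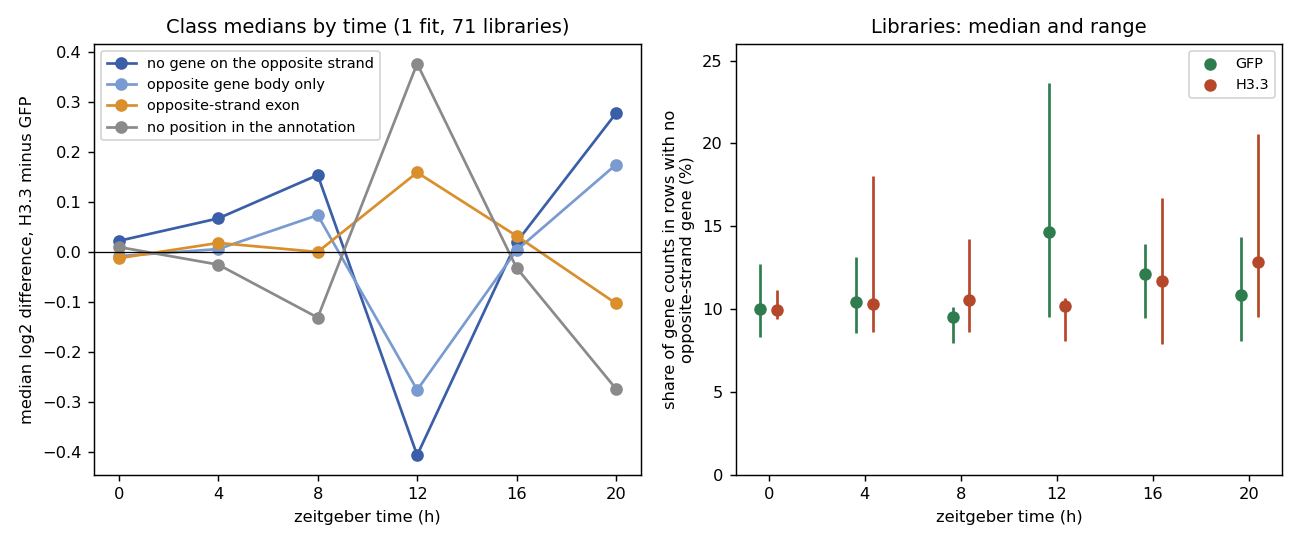
Left, median log2 difference (H3.3 minus GFP) of the 4 row classes at 6 zeitgeber times (h), from 1 edgeR fit of 71 libraries. Right, share of gene counts in rows with no opposite-strand gene (percent), as the median (point) and range (line) of the GFP and H3.3 libraries at each time. Rows with no opposite gene are at -0.41 at ZT12 and 0.28 at ZT20, unplaced rows mirror them, and the GFP range at ZT12 reaches 23.6%.

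The Q5A libraries of ZT12 had a median share of the no-opposite class of 11.5%, between the medians of H3.3 (10.2%) and GFP (14.6%). Their range was 9.08% to 25.7%, but with a mean of 12.98% (n = 7) the upper end of this range rested on a single library. The range therefore does not show that the Q5A libraries spread as the GFP libraries did (9.50% to 23.6%). In the fit of 20 libraries, Q5A minus GFP had 448 of 10517 rows at an unadjusted edgeR p under 0.05 (4.26%), and Q5A minus H3.3 had 1131 (10.8%), with 0 called in each. These comparisons share libraries with the one above, so only values are set side by side. The class with no opposite gene had medians of -0.18 for Q5A minus GFP and 0.27 for Q5A minus H3.3. The Matr3 row was at -0.40 ± 0.29 and 0.89 ± 0.29, and the Uchl1os row at 0.20 ± 0.17 and -0.43 ± 0.16 (SE, log2), of which the second value of each row was at an unadjusted edgeR p under 0.05.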

How the data were processed

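RNA-seq was performed by the authors on TMN tissue of single mice, from polyadenylated RNA with the Illumina Stranded mRNA Prep, Ligation kit. Reads were aligned to GRCm38 with STAR 2.7.11b and counted per gene name with HTSeq 2.0.5 in its stranded mode over exons. The deposited values are raw counts for 54087 gene names and 5 summary entries. Gene rows hold 3.49% to 5.63% of uniquely placed reads, and the summary entries, with the rest, were kept out of library sizes and tests. The authors used DESeq2 1.44.0. A further 18 files of no sample were used in no step.

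The 6 GFP and 7 H3.3 libraries of ZT12 were compared with edgeR 4.0.16 in R 4.3.3 with TMM, filterByExpr (minimum count 10, minimum total 15), the quasi-likelihood F test and Benjamini-Hochberg adjustment, called at an adjusted p under 0.01. Totals of 1059191 to 2705042 reads leave many named rows with few reads, where counting error adds to the spread between animals. DESeq2 1.42.0, limma voom 3.58.1, other scalings and filters, covariates, cohort 1 alone and left-out libraries were alternatives. Depth was compared by exact 2-sided permutation with scipy 1.17.1. The edgeR procedure was tested on counts simulated from the dispersions of these libraries. Apart from the changes put in, all simulated libraries had the same mean profile, so differences in row-class share were not simulated.

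Row classes and coordinates came from the GENCODE annotation of GRCm38, which placed 28658 names, with bedtools 2.31.1. Named rows were Matr3, the 12 of smallest p in each direction with a mean of at least 10 reads, the 10 of smallest p called by DESeq2, the 5 of smallest p in the contrast with other times, up to 4 per gene list, the striatal markers with 1 unplaced row that marks the same libraries, and the H3.3 genes. Gnas, Uchl1, Atp1b1 and their opposite rows were named after their values were seen. Members and lists were chosen with earlier results of these data known. Same-numbered libraries of a cohort were checked for pairing by correlating their deviations from the group means, which ran from -0.288 to 0.331 over 5 pairs, so the numbers were not used as pairs. Some rows are not reported here.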

Additional observations from a re-analysis of the deposited data

Results flagged for a closer look

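Single libraries stood far from the rest of their group (gap to the nearest library beyond Dixon's critical value) in 4 of 20 checks of library measures. For the 26 tested rows named by their p this was so in 3 of 52 checks. The usual 1 in 20 by chance does not apply to these rows, which were chosen by a small p between the groups and share libraries. The flagged library measures were chosen with the striatal libraries already known, so their count is a description and is not set against chance. The library checks were the summed striatal markers, 1397 CPM in GFP cohort 1 replicate 3 and 1604 in H3.3 cohort 1 replicate 1, and an unplaced row with a clone-based name, with 7188 and 9248 reads in the same libraries. Among named rows, Pja2 was low in H3.3 cohort 1 replicate 4 (15.9 CPM) and RP23-188K3.3 high in the same library (123 CPM), and Nt5c2 was high in H3.3 cohort 3 replicate 1 (753 CPM).

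The H3.3 minus GFP difference at ZT12 differed from the mean of the other 5 times at an edgeR adjusted p under 0.01 in 23 of the 81 named rows that could be tested, list members included. On the log2 scale the difference of differences was negative for Matr3 (-1.297), Herc2 (-1.21), Smg1 (-2.06), Nedd4 (-1.33), Pja2 (-1.54), Mkl2 (-1.63), Snhg11 (-1.49), Cct8 (-1.34), Vps41 (-1.83), Ift81 (-2.92), Slc1a3 (-1.62), Ndufv2 (-1.53) and Rpl26 (-1.12). It was positive for RP23-96A14.2 (0.92), RP23-188K3.3 (1.02), Uchl1os (0.89), Tceanc (1.65), RP23-25C1.7 (0.88), RP24-424K5.5 (1.04), CH25-211A23.3 (1.304), Nt5c2 (0.97), RP23-385C21.2 (0.83) and Ceacam16 (0.92). ZT12 was singled out for its low-p rows and most of these rows for a small p at ZT12 itself, so the share that passed describes them and supports nothing beyond.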

How the results depend on the processing

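Against 0 called rows, DESeq2 called 50, limma voom with quality weights 765 and edgeR with no filter on low counts 26, and leaving out single libraries gave 0 to 26, the latter without GFP cohort 1 replicate 3. The other alternatives in edgeR called 0. The 2877 rows at low p became 4658 with no filter, 1219 at a mean count of at least 50, 1836 in cohort 1 alone and 889 with log2 total as a covariate. Leaving out single libraries gave 1777 to 4406, without GFP cohort 2 replicate 1 and GFP cohort 1 replicate 3. Alternatives chosen after seeing the data gave 822 with the log2 share of no-opposite rows as a covariate (377 higher, 445 lower). No-opposite rows only gave 583 (325 higher, 258 lower), and opposite-exon rows only gave 953 (320 higher, 633 lower), each with its own TMM. That scaling is set within the class. The median of no-opposite rows was then -0.001, against -0.47 in the main fit, where 61 were higher and 1233 lower. The 189 rows of the contrast with other times became 728 by DESeq2, 755 without the 2 libraries with striatal genes, 635 with cohort as a covariate and 1 in cohort 1 alone. The total count differed by -443156 in cohort 1, past the adjusted threshold there, and the ambiguous share by -0.0176 points, of opposite sign. The causes were not tested. Class medians turned to 0.0817 (no opposite gene), 0.0639 (gene body) and -0.0536 (no position) with the share covariate, to -0.13, -0.27 and -0.0268 (opposite exon) under library totals, uniquely placed reads and its own TMM, and to -0.037 (no position) under uniquely placed reads. H2-D1 and H2-K1 turned to 0.47 and 0.29 with log2 total as a covariate. With a replicate block, 0 rows were called and 2598 were at low p, but the numbers do not pair the libraries. Among named rows, 606 of these values kept their direction and side of the threshold, 28 newly passed it and 2 turned. No named row was called in the main fit, so keeping the side means only that a row stayed uncalled. The share covariate was not among the settings in this tally. With 1059191 to 2705042 counts per library, rows such as Hdc and H3f3a could not be tested.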

Other observations

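Choroid plexus and ependymal genes had 1 of 2 tested rows at low p, Rarres2, opposite Lrrc61, with medians of 288 CPM in GFP and 381 in H3.3 (log2 0.37 ± 0.14, edgeR adjusted p = 0.109). Of 3 immediate early rows tested, 1 was at low p. This was Junb, a subunit of the AP-1 transcription factor opposite Prdx2, with medians of 249 and 354.7 CPM (log2 0.49 ± 0.16, edgeR adjusted p = 0.0840). Oligodendrocyte precursor genes had 1 of 2 lower, the receptor Pdgfra, and glucocorticoid-responsive genes 1 of 9 lower, Per1, which is also a clock gene. Vascular, pituitary and mammillary lists had 2 tested rows each and 0 at low p.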
